A study of Mus musculus with 18 samples.

Results

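DEN-induced liver tumours of miR-181ab1 knockout mice were compared with the non-tumour liver of DEN-treated knockout mice, to describe which liver functions were gained and which were lost in a tumour that formed without this microRNA cluster. DEN, diethylnitrosamine, is a carcinogen that liver cytochrome P450 enzymes turn into a DNA-alkylating agent. The comparison held 6 of the 18 RNA-sequencing samples, chosen by their labels alone: 3 GKO tumours and 3 GKO non-tumours. GKO stands for the global knockout, in which the cluster is deleted in all tissues. Both groups carried this deletion on a C57BL/6 background, received DEN once at 25 mg/kg body weight into the peritoneum on postnatal day 12, and were 36 weeks old; the study's methods describe male pups and visible tumours. Untreated GKO livers of the same age (GKO normal, 3 samples) are given as a further reference, and WT tumours and WT non-tumours (3 each, same DEN treatment, no deletion) serve for a test of the difference between genotypes. The labels do not say which samples came from the same mouse, so p-values measure the spread between these samples. The tissue was whole liver or whole tumour, in which fewer cells of a type and less RNA per cell cannot be told apart.

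In a healthy liver, hepatocytes divide their work along the path of the blood. Those around the portal vein make glucose and urea, while those around the central vein receive Wnt signals from the neighbouring endothelium and carry glutamine synthetase, ornithine aminotransferase and most of the cytochrome P450 enzymes that handle drugs, alcohol and DEN itself. The adult male liver also secretes major urinary proteins and expresses male-biased enzymes under pulsed growth hormone. Liver tumours are known for losing parts of this programme while taking up cell division, lipid synthesis and matrix production. MicroRNAs of the miR-181 family pair with their targets mainly through the seed, bases 2 to 8 of the mature strand.

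The deleted genes, Mir181a-1 (chr1:137966455-137966541, plus strand) and Mir181b-1 (chr1:137966639-137966718, plus strand), make the 2 main mature strands below, given as the products of the deleted genes. The study describes the cluster as the source of most mature miR-181 in human HCC, so both groups lacked these genes but not necessarily every copy of the strands. Coordinates and sequences are from RefSeq on GRCm38.p6, and capitals mark the seed, which the strands share.
miR-181a-5p: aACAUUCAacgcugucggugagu
miR-181b-5p: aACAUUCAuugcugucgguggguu
Libraries of this kind hold few microRNA precursors. Mir181b-1 was listed at 0 in all 18 samples, and Mir181a-1 at 0 in all but GKO tumour 3, where 1 recovered read gave 1.40 TPM. WT samples were also at 0, so the deletion could not be checked from these values.

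Values are TPM, a transcript's share of the library scaled to the same total in every sample and a level per transcript length, and each set of 3 values follows replicates 1, 2 and 3. Differences are tumours minus non-tumours on the log2(TPM + 1) scale ± SE with n = 3 in each group, and adjusted p-values are from limma with Benjamini-Hochberg adjustment over all 14092 genes tested. A gene is called, and said to rise or fall, at an adjusted p under 0.05. Gene spans are from the GENCODE vM21 annotation on GRCm38. Depth recovered from the TPM steps was 17427256 to 20751348 reads on genes in GKO tumours and 13808883 to 15858799 in GKO non-tumours. Pearson's r of log2(TPM + 1) ran from 0.940 to 0.978 between samples of a group and from 0.855 to 0.927 between the groups. The first principal component, 58.6% of the variance, placed the tumours at 64.1, 33.4 and 56.4 and the non-tumours at -35.1, -64.2 and -54.6, so GKO tumour 2 was the tumour nearest to the non-tumours. Both groups were liver by their markers: albumin (Alb) was at 101765, 94554 and 139816 TPM in the tumours and 23909.6, 34679 and 25506 TPM in the non-tumours. Transcripts encoded by the mitochondrial genome took 2.38%, 3.15% and 2.32% of all TPM in the tumours but 9.93%, 21.44% and 9.94% in the non-tumours. Since TPM add to a fixed total, this share moves with all other values, and its part in the results was not tested beyond the rescaled fits given below.

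**Figure D1:**
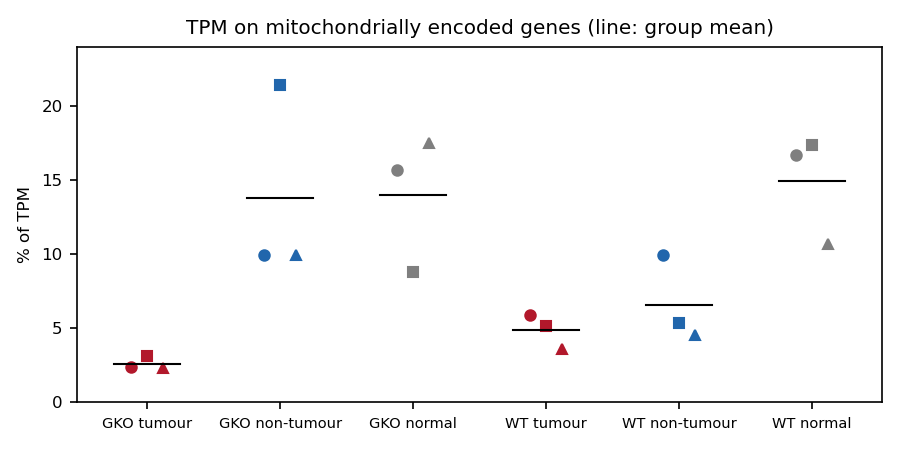
Share of all TPM, in percent, on genes of the mitochondrial genome in each sample of the 6 groups of the series, with black lines at the group means. GKO tumours sat at 2.32% to 3.15% and GKO non-tumours at 9.93% to 21.44%, and GKO normal livers at 8.8% to 17.49%.

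Of the 14092 genes tested, 1652 (11.7%) differed between GKO tumours and GKO non-tumours. In the tumours 1092 genes were higher, 7.75% of those tested, and 560 were lower, 3.97%. The 3 tumour and 3 non-tumour values of a gene did not overlap for 5400 genes, 38.3% of those tested, and for all 1652 called genes. Among the called genes, 225 rose and 175 fell by more than 2 on the log2 scale. The median difference of all genes was 0.199, so the split depended on scaling. With samples centred on their median, which moved the median difference to -0.036, 777 genes were higher (5.51%) and 990 lower (7.03%). Quantile normalisation gave 957 higher and 884 lower, voom on recovered reads 897 and 890, and TPM rescaled without mitochondrially encoded genes, an alternative added after the data were seen, 867 and 731. Of the 65 gene lists, median centring gave more lower members in 33 and fewer higher members in 23, and voom more lower members in 32 and fewer higher members in 17. Of 47 list counts between 1 and 3 given below, 33 fell to 0 without GKO non-tumour 3, 21 without GKO non-tumour 2, 12 without GKO tumour 3, 11 without GKO tumour 1, 5 without GKO non-tumour 1 and 4 without GKO tumour 2. The number of calls over all genes also rested on single samples: it was 229 without GKO non-tumour 3, 619 without GKO non-tumour 2, 747 without GKO tumour 3 and 1001 without GKO tumour 1.

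The genes called lower took 7.06% to 8.87% of all TPM in the tumours against 24.53% to 38.4% in the non-tumours. Those called higher took 29.38% to 30.7% against 7.76% to 9.04%. The genes were chosen by this difference, so the shares describe how abundant they were and test nothing. Of the 560 genes called lower, 342 had their highest tumour value in GKO tumour 2, 104 in GKO tumour 1 and 114 in GKO tumour 3.

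The 15 largest rises were led by H19, an imprinted RNA of fetal liver, at chr7:142575529-142578143. Its levels were 1005, 145 and 1679.9 TPM in the tumours and 0.312, 1.14 and 0.504 TPM in the non-tumours, a difference of 8.60 ± 0.82 (adjusted p = 0.00417). The lowest tumour, GKO tumour 2, still stood far above every non-tumour. Cyp2a4 (chr7:26307169-26315088), a testosterone 15-alpha-hydroxylase that is higher in females, reached 11422, 2899 and 1942 TPM against 45.3, 24.4 and 25.5 TPM, a difference of 6.99 ± 0.64 (adjusted p = 0.00407). Cyp2a5 is nearly identical in sequence, and reads may be shared between the pair. Tff3 (chr17:31125306-31129646), a secreted trefoil peptide of mucous epithelia, was at 3994, 997 and 3276 TPM against 57.8, 14.8 and 43.8 TPM, a difference of 6.09 ± 0.66 (adjusted p = 0.00506). Spink1, a trypsin inhibitor, was at 52.8, 59.7 and 333 TPM against 0, 0.605 and 0.588 TPM, where the non-tumour values rest on 0, 3 and 3 recovered reads.

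Cd63 (chr10:128900989-128912822), a tetraspanin of endosomes and exosomes, had the least variable of these rises. It was at 273, 259 and 244 TPM in the tumours and 7.08, 6.0 and 4.82 TPM in the non-tumours, a difference of 5.23 ± 0.22 (adjusted p = 0.000347). The tumours differed among themselves by less than the non-tumours did on the log2 scale, and a processed pseudogene copy of the gene is annotated. Tstd1, a sulfurtransferase-domain protein, was similarly even at 603, 849 and 548 TPM against 23.9, 30.03 and 16.7 TPM. Cyp2b9, a female-biased P450, rose by 5.22, the protease inhibitor Slpi by 5.13, the mitochondrial aldehyde dehydrogenase Aldh1b1 by 4.52, and Bex1, a small adaptor protein, by 4.46. Erich4, at 7.96, 62.9 and 25.8 TPM in the tumours, rested on 2, 0 and 0 recovered reads in the non-tumours. Akr1c18, a 20-alpha-hydroxysteroid dehydrogenase, was the most uneven, at 74.3, 551 and 14.1 TPM against 2.86, 2.43 and 0.206 TPM, and lost its call in 4 of the 6 fits without 1 sample, with an adjusted p of 0.131 without GKO non-tumour 3. Egr1, Col1a1 and Esm1 completed the 15 and are described with their groups.

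**Figure D2:**
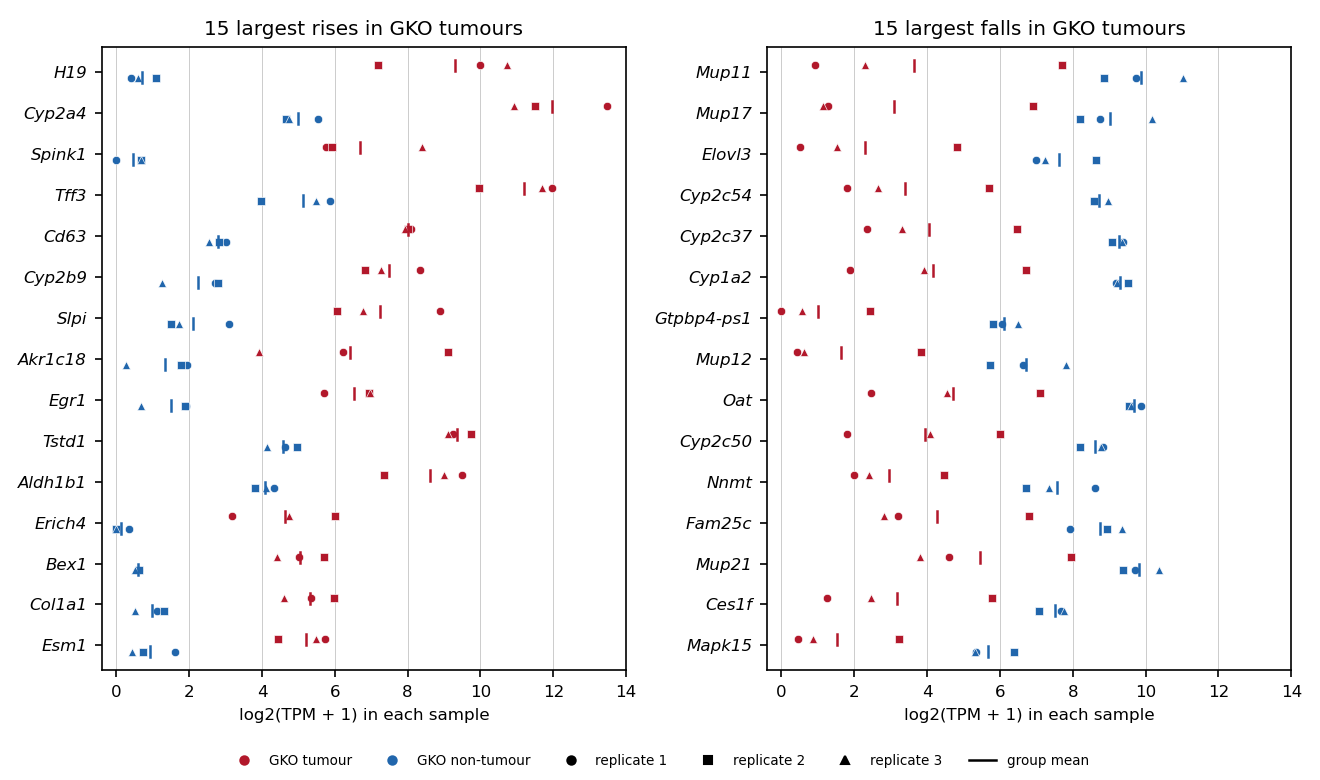
Expression of the 15 genes with the largest rises (left) and the 15 with the largest falls (right) among called genes, as log2(TPM + 1) on the horizontal axis for each of 3 GKO tumours (red) and 3 GKO non-tumours (blue). Marker shapes give the replicate and vertical strokes the group mean; GKO tumour 2 (red square) was the highest tumour for all 15 falls, while Cd63 and Tstd1 were nearly level across the tumours.

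Major urinary proteins and cytochromes P450 made up most of the 15 largest falls. Mup11, Mup17, Mup12 and Mup21 encode major urinary proteins, which carry pheromones. Cyp2c54, Cyp2c37, Cyp2c50 and Cyp1a2 are cytochromes P450, Oat is ornithine aminotransferase, Elovl3 extends very long fatty acids, Ces1f is a carboxylesterase and Nnmt methylates nicotinamide. Mapk15, an atypical MAP kinase, Fam25c and the pseudogene Gtpbp4-ps1 made up the rest. Mup11 (chr4:60658466-60662411) had the largest difference, -6.24 ± 1.60 (adjusted p = 0.0469), from 0.893, 209 and 3.87 TPM in the tumours and 854, 463 and 2101 TPM in the non-tumours. GKO tumour 2 was close to the lowest non-tumour, whereas GKO tumours 1 and 3 were almost devoid of the transcript. The call held without GKO tumour 2 and was lost without any other sample, with an adjusted p of 0.156 without GKO non-tumour 3. Nnmt was at 2.95, 20.9 and 4.25 TPM against 386, 104 and 163 TPM, a difference of -4.61 ± 0.71 (adjusted p = 0.012), and Gtpbp4-ps1, which may share reads with its parent gene Gtpbp4, at 0, 4.42 and 0.489 TPM against 65.7, 54.8 and 89.7 TPM.

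Many pericentral genes fell, and none was called higher. Of 25 pericentral genes tested, 12 were lower, where 3.97% of all genes were, and 0 higher, with a median difference of -2.22 (WT -2.78). Cyp1a2 (chr9:57676937-57683703), which oxidises caffeine and aromatic amines, was at 2.69, 104 and 14 TPM in the tumours and 585, 729.9 and 591 TPM in the non-tumours, with GKO normal livers at 475, 701 and 639 TPM. The difference was -5.13 ± 1.05 (adjusted p = 0.0253), and no tumour reached the non-tumour range. Oat (chr7:132557478-132576398) was at 4.54, 135 and 22.1 TPM against 943, 748 and 778 TPM, a difference of -4.98 ± 1.0 (adjusted p = 0.0242). Csad, which makes the taurine precursor hypotaurine, fell by 3.22 (adjusted p = 0.00935), and Slco1b2, a sinusoidal uptake carrier for bile acids and drugs, differed by -3.13 ± 0.53 (adjusted p = 0.015). Slc1a2, a glutamate carrier of the innermost pericentral hepatocytes, was at 0.033, 5.48 and 0.918 TPM against 37.8, 19.2 and 18.7 TPM. In all 5 genes GKO tumour 2 was the highest tumour. Lower members numbered 2 without GKO non-tumour 3 and 6 without GKO non-tumour 2 or GKO tumour 3.

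The genes that best define the zone had large but uneven differences that missed the threshold. Cyp2e1 (chr7:140763739-140774987), the P450 that activates DEN and oxidises ethanol, was at 18.8, 1446 and 405 TPM in the tumours and 9357, 3056 and 6045 TPM in the non-tumours, a difference of -4.62 ± 1.40 (adjusted p = 0.0733). Glul (chr1:153899944-153909723), glutamine synthetase, was at 6.38, 209 and 87.7 TPM against 1114, 448 and 538 TPM, a difference of -3.65 ± 1.12 (adjusted p = 0.0751). In neither gene did the groups overlap, as was so for 38.3% of all genes, but GKO tumour 1 stood many times below GKO tumour 2. Both were called when GKO tumour 2 was left out, and in no other fit without 1 sample.

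The Wnt targets that were called were also lower. Of 9 tested, 5 were lower and 0 higher, with a median difference of -1.31 (WT -1.61). Axin2, the feedback scaffold of beta-catenin degradation, was at 0.0197, 0.733 and 0.465 TPM in the tumours and 3.43, 3.06 and 2.46 TPM in the non-tumours, a difference of -1.53 ± 0.25 (adjusted p = 0.0135). Notum, a secreted Wnt deacylase, differed by -2.98 ± 0.58 (adjusted p = 0.0221). Tbx3, a transcription factor, was at 0.114, 3.89 and 1.54 TPM against 16.4, 17.6 and 15.1 TPM, a difference of -2.85 ± 0.49 (adjusted p = 0.0151), and Sp5 and Nkd1 fell by 1.98 and 1.31. The order of the tumours was the same in Axin2, Notum, Tbx3, Sp5 and Nkd1, GKO tumour 2 highest, then GKO tumour 3, then GKO tumour 1. Members called lower numbered 0 without GKO non-tumour 3, 1 without GKO non-tumour 2 and 2 without GKO tumour 3. Among endothelial genes, the Wnt agonist Rspo3 was at 0.28, 1.46 and 0.394 TPM against 5.21, 7.06 and 3.61 TPM, a difference of -1.90 ± 0.32 (adjusted p = 0.0151), and the ligand Wnt2 fell from 2.04, 2.49 and 2.04 TPM to 0.048, 1.03 and 0.486 TPM (-1.12 ± 0.27, adjusted p = 0.0398).

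**Figure D3:**
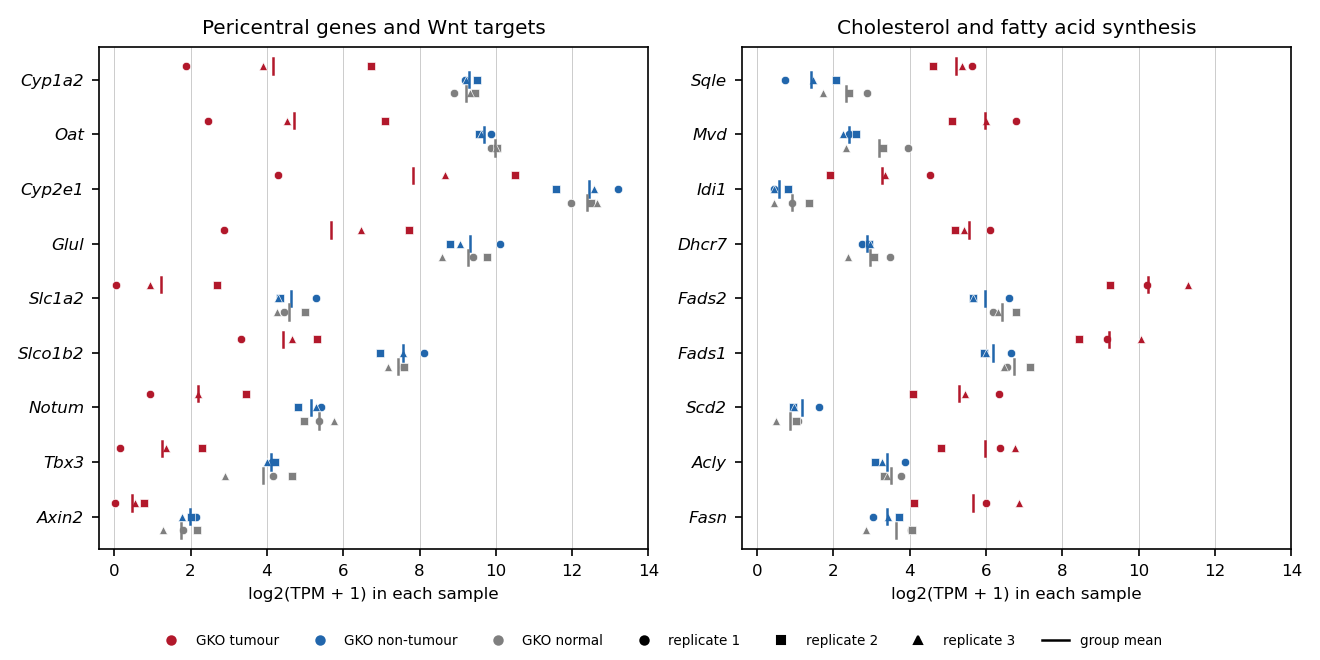
Levels of 9 pericentral or Wnt target genes (left) and 9 genes of cholesterol and fatty acid synthesis (right) as log2(TPM + 1) on the horizontal axis, in 3 GKO tumours (red), 3 GKO non-tumours (blue) and 3 untreated GKO normal livers (grey). Vertical strokes are group means; on the left GKO tumour 2 (squares) was the highest red point in all 9 genes and on the right the lowest red point in all 9.

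Periportal genes were called in both directions. Of 26 periportal genes, 4 were higher and 4 lower, with a median of -0.16. Etnppl, a phospholyase for phosphoethanolamine, was at 2.15, 3.3 and 0.752 TPM against 43.7, 48.2 and 36.5 TPM, a difference of -3.92 ± 0.34 (adjusted p = 0.00407), and Pigr, which carries immunoglobulin A into bile, fell by 3.65. Sds, serine dehydratase, and the growth factor Igf1 were the other members called lower. Aldh1b1, Alb, Hsd17b13, a lipid droplet enzyme, and Cdh1, the E-cadherin of epithelial junctions, were called higher. Cdh1 was at 30.3, 49.3 and 47.3 TPM against 4.66, 2.46 and 2.74 TPM, a difference of 3.34 ± 0.29 (adjusted p = 0.00407). The lower periportal count became 1 without GKO non-tumour 3 and 2 without GKO non-tumour 2. Limma called 0 of 8 urea cycle genes, with differences of -1.26 to 0.28 (0 higher and 1 lower at an unadjusted p under 0.05, 0 and 1 by voom). It also called 0 of 16 genes of hepatic glucose handling, with differences of -2.34 to 2.54 (3 higher and 3 lower at an unadjusted p under 0.05, 1 and 0 by voom). Amino acid catabolism held 4 lower members of 40 and 0 higher: Oat, Csad and Sds, already named, and Cdo1, cysteine dioxygenase, at 1078, 679 and 811 TPM against 2139.8, 2144 and 1975 TPM. Lower members of this list numbered 8 with median centring or voom, 1 without GKO non-tumour 3. Of 23 hepatocyte transcription factors 1 was higher and 1 lower: Onecut2 fell from 11.8, 19.7 and 13.3 TPM to 0.0727, 5.32 and 0.355 TPM and Foxa3 rose by 1.52, while Hnf4a, a master regulator of hepatocytes, was at 172, 158 and 217 TPM against 165, 134 and 141 TPM with overlapping groups. Over all genes 7.75% were higher and 3.97% lower.

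Secreted proteins and steroid enzymes typical of the male liver fell. Major urinary protein genes were lower in 11 and higher in 0 of 17 tested, with a median of -3.24. Their transcripts are close copies of one another, so single members are uncertain. Mup3 was at 327, 2788 and 1325 TPM in the tumours and 15347, 11556 and 22121 TPM in the non-tumours, a difference of -3.89 ± 0.72 (adjusted p = 0.0196). Mup20, darcin, was at 2119, 6399 and 10294 TPM against 11859, 7199.7 and 16274 TPM and was not called (-1.10 ± 0.59, adjusted p = 0.236). Mup20 thus stayed abundant in all tumours, while Mup11 and Mup17 were near 0 in GKO tumours 1 and 3. Lower members numbered 0 without GKO tumour 3, 1 without GKO non-tumour 3, 3 without GKO tumour 1, 4 without GKO non-tumour 1 and 6 without GKO non-tumour 2.

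Male-biased genes were lower in 13 of 24 tested and higher in 0, with a median of -2.19. Slco1a1, a steroid and bile acid carrier, was at 0.41, 13 and 1.82 TPM against 64.9, 46.4 and 70.6 TPM, a difference of -3.99 ± 0.75 (adjusted p = 0.0202). Cyp7b1, which hydroxylates oxysterols, was at 7.75, 30.6 and 4.61 TPM against 251, 79 and 243 TPM, a difference of -3.88 ± 0.70 (adjusted p = 0.0182). The hydroxysteroid dehydrogenase Hsd3b5 and the glucuronosyltransferase Ugt2b1 fell by 3.89 and 3.34, and the pseudogene Serpina4-ps1 was at 0.168, 2.47 and 0.189 TPM against 11.5, 14.3 and 17.4 TPM. The count was 2 without GKO non-tumour 3, 6 without GKO tumour 3 and 7 without GKO non-tumour 2. Among female-biased genes 3 of 22 rose, Cyp2a4, Cyp2b9 and Rtn4, a protein of the endoplasmic reticulum, and 0 fell. The higher count of that list was 5 without GKO tumour 3 and 6 without GKO tumour 1. Of the growth hormone axis, 2 of 14 were lower and 0 higher. Igf1 was at 29.4, 32.9 and 86 TPM against 146, 176 and 188 TPM, a difference of -1.92 ± 0.41 (adjusted p = 0.029), and the prolactin receptor Prlr fell by 1.56. The growth hormone receptor Ghr was at 26.4, 21.4 and 39.6 TPM against 64.5, 51.5 and 58.3 TPM, with an adjusted p of 0.0545, and it was called lower in 7 of the other fits of all samples, median centring and voom among them. Among receptors, 2 of 18 were lower, 4 with median centring or voom, Prlr among them, at 3.73, 3.28 and 6.16 TPM against 13.3, 12.7 and 18.1 TPM (-1.56 ± 0.27, adjusted p = 0.0152).

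Detoxification enzymes fell more often than they rose. Of the Cyp1 and Cyp2 genes, 9 were lower and 2 higher among 37. Cyp2c54, a P450 of the Cyp2c cluster, was at 2.51, 51.3 and 5.23 TPM in the tumours and 382, 384 and 495 TPM in the non-tumours, a difference of -5.32 ± 0.89 (adjusted p = 0.0147). Cyp2c37 was at 4.09, 88.1 and 8.88 TPM against 665, 534 and 649 TPM. These genes are close copies within the cluster, and reads may be shared among them. Cyp2j9 was even among the tumours at 2.27, 1.83 and 2.01 TPM against 13.6, 26.1 and 21.2 TPM, a difference of -2.77 ± 0.26 (adjusted p = 0.00417). The members that rose were Cyp2a4 and Cyp2b9. Lower calls in the list numbered 2 without GKO non-tumour 3 and 4 without GKO tumour 3. In the Cyp3a family 1 of 5 was lower, Cyp3a25, at 127, 83.2 and 279 TPM against 663, 830.1 and 683 TPM. Among Cyp4 genes 2 were lower and 2 higher of 14: Cyp4a12a and Cyp4v3 fell, and Cyp4f16 and Cyp4a31 rose. Lower Cyp4 members numbered 6 with median centring or voom, 0 without GKO non-tumour 2 or GKO non-tumour 3 and 4 without GKO tumour 1 or GKO tumour 2.

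Conjugating enzymes also fell more often than they rose. Of 29 glucuronosyl-, sulfo- and N-acetyltransferase genes, 9 were lower and 0 higher, with a median of -1.02. Sult2a8, a bile acid sulfotransferase, was at 62, 54.5 and 14.1 TPM against 303, 256 and 420.0 TPM, a difference of -3.09 ± 0.54 (adjusted p = 0.0166). Sult5a1 was at 0.686, 0.332 and 0.0551 TPM against 4.42, 4.45 and 5.53 TPM, and Nat8f5, Sult2a7 and Ugt3a2 fell by 2.85, 2.66 and 1.97. The lower count became 13 with median centring and 14 by voom, 1 without GKO non-tumour 3 and 4 without GKO tumour 3. Glutathione transferases were lower in 5 and higher in 1 of 22. Gsta2 was at 10.8, 19.8 and 1.45 TPM against 125, 79.5 and 88.4 TPM (-3.52 ± 0.72, adjusted p = 0.0252). Gstp1, which shares sequence with Gstp2, was at 2966, 2913 and 986 TPM against 8676, 7378 and 9393 TPM, a difference of -2.05 ± 0.44 (adjusted p = 0.0305). It stayed near 1000 TPM or above in all tumours. The count for this family was 0 without GKO non-tumour 3, 1 without GKO non-tumour 2, 2 without GKO non-tumour 1 and 3 without GKO tumour 3. Carboxylesterases, flavin mono-oxygenases, aldehyde oxidases and alcohol dehydrogenases together were lower in 6 and higher in 3 of 28. Ces1b fell from 91.3, 109 and 84.4 TPM to 5.13, 14.3 and 1.98 TPM, a difference of -3.86 ± 0.54 (adjusted p = 0.00921), and Aox1, an aldehyde oxidase, from 24.8, 30.5 and 23.4 TPM to 6.36, 3.17 and 2.12 TPM, whereas Ces2e rose from 69.5, 23.6 and 32.6 TPM to 129, 438 and 506 TPM. Adh4, a retinol-oxidising alcohol dehydrogenase, was at 44, 41.4 and 44 TPM against 149, 90.4 and 115 TPM. Lower members numbered 8 with median centring and 10 by voom, 2 without GKO non-tumour 3. NRF2 targets, which answer to oxidative stress, were lower in 2 and higher in 1 of 23: Gclc, the catalytic subunit for glutathione synthesis, was at 48.6, 62.5 and 41.3 TPM against 126, 237 and 111 TPM, Txn1, a thioredoxin, fell by 0.97, and Pgd, of the pentose phosphate pathway, rose by 1.33.

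Bile acid, iron and acute-phase genes were called in small numbers. Among 30 bile acid genes 4 fell, Slco1a1, Cyp7b1, Slco1b2 and Cyp27a1, and 1 rose, Abcb1a. Cyp27a1, the sterol 27-hydroxylase, was at 76.6, 73.4 and 76.1 TPM in the tumours and 535, 218 and 384 TPM in the non-tumours, a difference of -2.22 ± 0.34 (adjusted p = 0.0117), with tumours almost level. Members called lower numbered 0 without GKO non-tumour 3 and 1 without GKO tumour 3. Hamp, hepcidin, the hormone that limits iron uptake, was at 631, 2819.7 and 729 TPM against 5384, 14290.3 and 9339 TPM, a difference of -3.04 ± 0.62 (adjusted p = 0.0254). The list of iron and metallothionein genes had 2 higher and 1 lower of 18. In the acute-phase list 3 rose and 3 fell of 23. Orm1, orosomucoid, fell from 2131, 1428 and 4582 TPM to 426, 508 and 485 TPM, while Lcn2, lipocalin 2, rose from 17.9, 4.62 and 21 TPM to 209, 176 and 168 TPM (3.80 ± 0.50, adjusted p = 0.00818).

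Nuclear genes of oxidative phosphorylation were lower in 4 and higher in 0 of 76 tested, with a median of -0.26, a share of lower calls near the 3.97% of all genes. Lower members numbered 12 with median centring, where 7.03% of all genes were lower, and 18 by voom, where 890 of 14091 genes were. At an unadjusted p under 0.05 by limma 24 were lower, against 1422 of all 14092 genes. Of the 76, 18 had a positive difference. The 4 called lower in the main fit were Ndufa3, Ndufb2 and Ndufa5 of complex I and Cox6c of complex IV. Ndufa3 was at 201, 234 and 155 TPM against 367, 488 and 469 TPM, a difference of -1.17 ± 0.26 (adjusted p = 0.0315). The count was 0 without GKO non-tumour 2 or GKO non-tumour 3 or GKO tumour 1 or GKO tumour 3 and 2 without GKO tumour 2. Fatty acid oxidation and PPAR alpha targets showed 1 higher, Cpt1a, the carnitine transferase that admits fatty acids to mitochondria, and 1 lower, Cpt2, its partner on the inner membrane, of 33. Over all genes 7.75% were higher and 3.97% lower. Cpt2 lost its call in all 6 fits without 1 sample and Cpt1a in 4 of them. Cpt1a was at 239, 227 and 506 TPM against 127, 63.2 and 103 TPM and Cpt2 at 52.7, 84.1 and 89.6 TPM against 148, 150.2 and 156 TPM. The acyl-CoA thioesterases held 1 higher and 0 lower member of 11, Acot2, at 66.4, 49 and 61.2 TPM against 19.2, 28.9 and 26.9 TPM (1.21 ± 0.25, adjusted p = 0.0255). That share of higher calls was near the 7.75% of all genes, and with median centring 0 thioesterases were called. Acot2 lost its call in 4 of the other fits of all samples and in 3 fits without 1 sample.

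Most genes of cholesterol synthesis rose, in the largest share of members of any list drawn below. Of 26 genes of cholesterol synthesis and uptake, 18 rose, where 7.75% of all genes did, and 0 fell, with a median of 2.06 (WT 0.50). Sqle (chr15:59315077-59331192), squalene epoxidase, was at 48.9, 23.6 and 40.7 TPM in the tumours and 0.668, 3.22 and 1.74 TPM in the non-tumours, a difference of 3.79 ± 0.40 (adjusted p = 0.00506). Mvd, which forms isopentenyl diphosphate in the mevalonate pathway, was at 110.2, 33.5 and 62.8 TPM against 4.33, 5.01 and 3.74 TPM, a difference of 3.55 ± 0.41 (adjusted p = 0.00553). Both genes were lowest in GKO tumour 2 and above every non-tumour in all 3 tumours. Dhcr7, a late reductase of the pathway, was at 67.4, 35.2 and 41.8 TPM against 5.73, 6.65 and 6.84 TPM, a difference of 2.68 ± 0.28 (adjusted p = 0.00506). Idi1, the isomerase that follows Mvd, was at 22.1, 2.76 and 9.18 TPM against 0.364, 0.765 and 0.354 TPM, a difference of 2.69 ± 0.59 (adjusted p = 0.0309), with an adjusted p of 0.112 without GKO non-tumour 3. Higher members numbered 6 without GKO non-tumour 3 and 11 without GKO non-tumour 2 or GKO tumour 3.

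Promoters of these genes were searched for short words on both strands, from 250 bases before to 50 after the RefSeq start. The words were CCAAT, bound by NF-Y, TCACNCCAC, a sterol response element, CACGTG, an E-box, and TTTGAA, the cell cycle homology region. None of them contains another. Of the 26 cholesterol genes, 18 had a promoter in the table, and 17 of the 18 held CCAAT, 94.4%, where 41.1% of all 27025 genes with a promoter did. TCACNCCAC was in 1 of 18 (1.4% of all genes), CACGTG in 4 (8.1% of all genes) and TTTGAA in 1 (20.2% of all genes). A match is a description of letters and not a bound site. Stretches around the matches are shown for 4 members that rose, with CCAAT or its reverse complement ATTGG in capitals, because they show how the word recurs.
Mvd (chr8:122443430-122443497, minus strand): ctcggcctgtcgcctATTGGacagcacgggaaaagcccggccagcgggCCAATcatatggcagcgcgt
Idi1 (chr13:8885546-8885611, plus strand): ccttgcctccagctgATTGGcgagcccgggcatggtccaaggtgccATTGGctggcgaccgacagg
Dhcr7 (chr7:143830114-143830184, plus strand): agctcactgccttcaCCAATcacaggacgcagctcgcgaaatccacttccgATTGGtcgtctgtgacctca
Cyp51 (chr5:4104707-4104741, minus strand): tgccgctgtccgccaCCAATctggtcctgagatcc
Cyp51 shows 1 copy of the word and the other genes 2 copies each.

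Some genes of fatty acid synthesis rose. Of 22 lipogenic genes 8 rose and 1 fell, with a median of 1.18 (WT 0.15). Fads2, the delta-6 desaturase for polyunsaturated fats, was at 1182, 611 and 2507 TPM in the tumours and 95.8, 49.3 and 49.8 TPM in the non-tumours, a difference of 4.28 ± 0.53 (adjusted p = 0.00698). Its neighbour Fads1, the delta-5 desaturase, was at 577, 347 and 1059.7 TPM against 99.2, 60.3 and 62.9 TPM, a difference of 3.03 ± 0.43 (adjusted p = 0.00949). Scd2, a stearoyl-CoA desaturase, differed by 4.11 ± 0.54 (adjusted p = 0.00792), and Acly, which makes cytosolic acetyl-CoA, rose by 2.56 (adjusted p 0.0931 without GKO non-tumour 3). Pnpla3, a lipid droplet lipase, was at 3.57, 1.66 and 16.1 TPM against 0, 0.0824 and 0 TPM and rested on 0, 1 and 0 recovered reads in the non-tumours. Fasn, fatty acid synthase, was at 63.5, 16.4 and 116 TPM against 7.21, 12.3 and 9.88 TPM, higher in all tumours but not called (adjusted p = 0.0614). Mlxipl, the glucose-sensing activator of lipogenesis, was the member that fell, from 76.2, 92.7 and 97.7 TPM to 20.2, 27.9 and 48.1 TPM. Higher calls in the list numbered 2 without GKO non-tumour 3, 4 without GKO non-tumour 2 or GKO tumour 1 and 5 without GKO non-tumour 1 or GKO tumour 3.

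Lipid storage and transport changed in both directions. Lipid droplet genes held 3 higher and 2 lower members of 22, with higher members numbering 1 without GKO non-tumour 3 and 7 without GKO tumour 1. Fabp5, a fatty acid binding protein, was at 29.4, 101 and 49.9 TPM against 4.33, 1.22 and 4.45 TPM, a difference of 3.75 ± 0.52 (adjusted p = 0.0089). Hsd17b13 was at 2154, 975 and 1365 TPM against 334, 170.3 and 241 TPM, Fabp4 rose by 2.66, and the droplet coat protein Plin4 fell from 6.88, 11 and 5.37 TPM to 0.169, 1.71 and 0.506 TPM, as did Mogat1. Apolipoprotein and lipase genes held 3 higher and 3 lower members of 18. Apoa4 was at 739, 1686 and 6685 TPM against 71.3, 122 and 143 TPM (4.22 ± 0.74, adjusted p = 0.0166) and Apom, the sphingosine phosphate carrier, at 2814, 1419.8 and 928 TPM against 366, 77.6 and 138 TPM (3.28 ± 0.62, adjusted p = 0.0201). Apoa1 rose, while Apoa2, its partner on high-density lipoprotein, fell from 73580.3, 97398 and 90198 TPM to 40367, 35739.5 and 33418 TPM. Apoa1 lost its call in all 6 fits without 1 sample and in 4 of the other fits of all samples. Apoa2 lost its call in 2 and 1 of them. Higher members of the list numbered 2 with median centring or voom. Lipc, hepatic lipase, was level in the tumours at 36.6, 36.7 and 35.1 TPM against 153, 121 and 136 TPM, a difference of -1.88 ± 0.21 (adjusted p = 0.00506). Retinoid and lipid transport genes held 3 higher, Lpl and Rdh11 among them, and 1 lower, Cyp26a1, of 15.

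Some genes of cell division rose, and more of them were not called. Of 43 genes of the G2 and M phases 17 rose and 0 fell, with a median of 1.11 (WT 1.02). Ccnb2 (chr9:70407692-70421547), a mitotic cyclin, was at 34.5, 15.3 and 44.2 TPM in the tumours and 0.918, 1.5 and 0.729 TPM in the non-tumours, a difference of 3.88 ± 0.39 (adjusted p = 0.00487). Cdc20, which activates the anaphase-promoting complex, was at 17.6, 10.3 and 43.2 TPM against 0.82, 0.683 and 0.996 TPM, a difference of 3.52 ± 0.46 (adjusted p = 0.00792). In both genes GKO tumour 3 was highest and GKO tumour 2 lowest, with all tumours above all non-tumours. Birc5, Ube2c and Cdca3, all of mitosis, rose by 2.20, 2.35 and 2.55. Mki67, the Ki-67 antigen, was at 3.28, 1.88 and 6.21 TPM against 0.406, 0.304 and 0.296 TPM (1.74 ± 0.33, adjusted p = 0.0201). The higher count became 5 without GKO non-tumour 2 or GKO non-tumour 3 and 10 without GKO non-tumour 1.

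The S phase list had 5 higher and 0 lower members of 28, with a median of 0.55: Mcm2, Mcm5 and Mcm6 of the replicative helicase, Rrm2, of deoxynucleotide synthesis, and Tyms, thymidylate synthase. Mcm2 was at 2.38, 2.04 and 1.72 TPM against 0.624, 0.459 and 0.553 TPM, a difference of 0.97 ± 0.19 (adjusted p = 0.021). Higher members numbered 3 with median centring and 5 by voom, 0 without GKO non-tumour 2 or GKO non-tumour 3 and 1 without GKO tumour 1 or GKO tumour 3. Of 17 G1 cyclins and cyclin-dependent kinase inhibitors 7 rose and 0 fell. Ccnd1, cyclin D1, was at 22.4, 11.8 and 25.9 TPM against 2.09, 1.11 and 1.19 TPM, a difference of 3.05 ± 0.32 (adjusted p = 0.00506), and Ccne1, cyclin E1, at 6.1, 4.87 and 4.12 TPM against 0.48, 0.336 and 0.606 TPM (2.02 ± 0.20, adjusted p = 0.00499). The inhibitors Cdkn2b and Cdkn2a rose in the same tissue: Cdkn2b was at 8.88, 53.3 and 13.9 TPM against 0.459, 0.643 and 0.803 TPM (3.62 ± 0.57, adjusted p = 0.0127) and Cdkn2a at 7.57, 67.7 and 11.4 TPM against 2.51, 0.98 and 2.22 TPM (2.78 ± 0.72, adjusted p = 0.0486), each highest in GKO tumour 2. Cdkn2a lost its call in 6 of the other fits of all samples and Cdkn2b in 0. Without 1 sample, Cdkn2a lost its call in 4 fits and Cdkn2b in 1. Members called higher numbered 2 without GKO non-tumour 3 and 4 without GKO non-tumour 2. Of 20 p53 targets 3 rose, Btg2, Tnfrsf10b and Aen, and 0 fell, where 7.75% of all genes rose. With median centring 1 target was higher and 1 lower, and by voom 2 and 1. Aen lost its call in 7 of the other fits of all samples and Tnfrsf10b in 2.

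The same words were searched in the promoters of the G2 and M phase genes. CCAAT was in 30 of the 37 genes with a promoter, 81.1%, and TTTGAA, the cell cycle homology region, in 27, 73.0%, where 41.1% and 20.2% of all genes held them. Collagen and matrix genes held CCAAT in 7 of 18 and TTTGAA in 4, and pericentral genes CCAAT in 9 of 19 and TTTGAA in 5. Stretches are shown for 4 members that rose, with both words and their reverse complements ATTGG and TTCAAA in capitals, since the words recur together.
Ccnb2 (chr9:70421530-70421689, minus strand): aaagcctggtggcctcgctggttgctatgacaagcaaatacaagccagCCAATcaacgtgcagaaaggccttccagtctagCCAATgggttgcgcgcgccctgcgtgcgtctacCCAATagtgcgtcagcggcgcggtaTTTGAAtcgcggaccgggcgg
Cdc20 (chr4:118437332-118437411, minus strand): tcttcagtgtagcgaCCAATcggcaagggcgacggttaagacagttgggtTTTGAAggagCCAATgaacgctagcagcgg
Cdca3 (chr6:124830066-124830225, plus strand): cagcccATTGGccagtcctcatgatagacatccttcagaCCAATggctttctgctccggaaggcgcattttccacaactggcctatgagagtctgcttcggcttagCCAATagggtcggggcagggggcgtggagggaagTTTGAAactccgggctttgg
Ube2c (chr2:164769761-164769920, plus strand): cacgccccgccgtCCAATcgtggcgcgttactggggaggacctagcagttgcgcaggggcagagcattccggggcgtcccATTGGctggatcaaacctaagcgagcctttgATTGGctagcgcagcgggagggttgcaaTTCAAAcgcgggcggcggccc
Cdc20 shows CCAAT 2 times, the other genes 3 times, and each shows TTTGAA 1 time.

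Immediate early genes rose in 7 and fell in 0 of 14. Egr1 was at 51.5, 122 and 123 TPM in the tumours and 2.73, 2.7 and 0.609 TPM in the non-tumours, a difference of 5.04 ± 0.46 (adjusted p = 0.00407). Atf3 was at 16.1, 27.6 and 10.4 TPM against 1.42, 1.13 and 1.04 TPM (3.02 ± 0.33, adjusted p = 0.00506) and Btg2, an antiproliferative factor, at 21.3, 72.7 and 54.9 TPM against 3.91, 2.05 and 2.26 TPM (3.63 ± 0.45, adjusted p = 0.00716). Fos and Junb, which form AP-1, Klf6 and Ier2 were the other members called higher. Myc was at 20.4, 5.94 and 7.49 TPM against 4.0, 1.27 and 3.42 TPM, not called (adjusted p = 0.0775). The higher count became 4 with median centring or voom, 3 without GKO non-tumour 2 or GKO non-tumour 3 or GKO tumour 3 and 4 without GKO tumour 2. MAPK feedback genes rose in 3 and fell in 0 of 13: Dusp5, a phosphatase of ERK, at 14.8, 35.5 and 16.8 TPM against 1.19, 0.981 and 0.502 TPM (3.54 ± 0.35, adjusted p = 0.00465), Ccnd1 and Dusp4. The count for that list was 10 without GKO tumour 1.

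Liver tumour markers rose in 11 and fell in 1 of 29 tested, with a median of 2.36 (WT 1.80). Afp, alpha-fetoprotein, the fetal albumin homologue, was at 18.6, 55.6 and 13 TPM in the tumours and 2.01, 0.189 and 2.54 TPM in the non-tumours, a difference of 3.42 ± 0.60 (adjusted p = 0.0165). Golm1, a Golgi membrane protein shed into serum, was at 3.99, 3.65 and 6.69 TPM against 0.289, 0 and 0.028 TPM (2.36 ± 0.25, adjusted p = 0.00506). Gpc3, glypican 3, was uneven at 2.49, 202 and 104 TPM against 2.28, 0.38 and 0.184 TPM, with GKO tumour 1 near the highest non-tumour, and was not called (adjusted p = 0.0719). Tff3, Spink1, Cd63, Akr1c18, Lcn2 and Scd2, described above, were among those that rose, and Gstp1 was the one that fell. Higher members numbered 7 without GKO non-tumour 3. Of 8 imprinted growth genes tested, 2 rose, H19 and the growth factor receptor adaptor Grb10, and 0 fell. In the IGF axis Igfbp3 rose and Igf1 fell of 12 tested. Igfbp1, a secreted IGF binding protein, was at 122, 3782 and 216 TPM against 67.5, 21.2 and 10.7 TPM, above every non-tumour in each tumour but spread too widely to be called (adjusted p = 0.0732).

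The amino acid stress and serine synthesis list had 7 higher and 0 lower members of 21. Psat1, phosphoserine aminotransferase, was at 29.6, 25.6 and 12.1 TPM in the tumours and 0.45, 0.12 and 0.117 TPM in the non-tumours, a difference of 4.17 ± 0.34 (adjusted p = 0.00407). Trib3, a pseudokinase induced by ATF4, was at 258, 216 and 93.6 TPM against 33.3, 4.92 and 24.6 TPM (3.33 ± 0.69, adjusted p = 0.0261), and Psph, Aldh18a1, Ddit4 and Atf5 rose by 1.25 to 1.59. Higher calls in the list numbered 1 without GKO non-tumour 3 and 4 without GKO non-tumour 2. Chaperones of the endoplasmic reticulum held 3 higher members of 22, P4hb, Xbp1 and Dnajb9, and 0 lower, and limma called 0 of 9 heat shock genes, with differences of -1.42 to 0.78 (1 higher and 2 lower at an unadjusted p under 0.05, 0 and 1 by voom). Cytosolic ribosomal protein genes rose in 8 and fell in 0 of 85, with a median of 0.52, a share of calls near the 7.75% of all genes. Of the 85, 73 had a positive difference, and groups did not overlap in 49, as was so for 38.3% of all genes. By limma 34 were higher at an unadjusted p under 0.05, against 3046 of all 14092 genes. Rpl3, a protein of the large subunit, was at 479, 274 and 331 TPM against 168, 57.6 and 76.1 TPM (1.95 ± 0.43, adjusted p = 0.0314), and many processed copies of such genes exist that may share reads. The ribosomal count was 0 without GKO non-tumour 3, 1 without GKO non-tumour 2 or GKO tumour 1 or GKO tumour 3, 3 without GKO tumour 2 and 21 without GKO non-tumour 1. Glycolytic isozymes held 1 higher member of 20, Aldoc, aldolase C, at 24.9, 10.4 and 13.2 TPM against 4.31, 1.29 and 3.57 TPM, and 0 lower, where 7.75% of all genes were higher.

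Many matrix genes rose, and none was called lower. Of 28 collagen and matrix genes 18 rose and 0 fell, with a median of 1.21 (WT 0.35). Col1a1 (chr11:94936224-94953042), a chain of fibrillar collagen I, was at 39.5, 62.2 and 23.5 TPM in the tumours and 1.19, 1.46 and 0.435 TPM in the non-tumours, a difference of 4.33 ± 0.38 (adjusted p = 0.00407). Nid1, nidogen of the basement membrane, was even at 26.7, 27.5 and 35.7 TPM against 1.97, 0.937 and 1.11 TPM, a difference of 3.74 ± 0.24 (adjusted p = 0.00217). Col1a1 was highest in GKO tumour 2, the tumour that was lowest for Ccnb2, Cdc20, Sqle and Mvd. Col4a1 and Col4a2, the chains of basement membrane collagen IV, rose by 3.34 and 3.29, Col3a1 by 3.44, and Sparc, a matrix glycoprotein, by 2.93. The higher count became 8 without GKO non-tumour 3 and 10 without GKO non-tumour 2. Of Timp and metalloproteinase genes 2 of 10 rose, Timp3 and Adamts1, and 0 fell.

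TGF beta pathway genes rose in 6 and fell in 0 of 31. The receptor Tgfbr2 was at 8.86, 11.9 and 14.4 TPM against 4.15, 1.54 and 2.27 TPM (1.84 ± 0.31, adjusted p = 0.0148), and the activin subunit Inhbb at 7.99, 13.4 and 3.12 TPM against 0.87, 0.96 and 0.408 TPM (2.23 ± 0.44, adjusted p = 0.0224). The ligands Tgfb2 and Tgfb3 and the mediator Smad2 were also called. Higher members numbered 0 without GKO non-tumour 3, 1 without GKO non-tumour 2 or GKO tumour 3, 2 without GKO tumour 1 and 3 without GKO tumour 2. EMT and adhesion genes rose in 5 and fell in 0 of 24. The mesenchymal filament Vim was at 45.2, 42.2 and 32.1 TPM against 11.6, 9.04 and 5.44 TPM (2.11 ± 0.30, adjusted p = 0.00936) and the laminin receptor subunit Itga6 at 2.95, 3.4 and 2.55 TPM against 0.283, 0.297 and 0.454 TPM (1.56 ± 0.19, adjusted p = 0.00667). Cdh1, an epithelial cadherin, rose in the same tumours, as did Fn1 and Tjp1. The EMT and adhesion count was 3 without GKO non-tumour 2 or GKO non-tumour 3 or GKO tumour 2 or GKO tumour 3. Tetraspanins rose in 7 and fell in 0 of 19: beside Cd63, Tspan15 rose by 2.16, Tspan31 by 2.14 and Cd151, an integrin partner, by 1.80. The tetraspanin count was 1 without GKO non-tumour 3, 3 without GKO tumour 1 and 4 without GKO tumour 3.

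Complement and coagulation genes were higher in 10 and lower in 2 of 39, with 7 and 4 after median centring. Kng1, kininogen, was at 5123, 4945 and 4092 TPM in the tumours and 1278, 1191 and 1536 TPM in the non-tumours, a difference of 1.82 ± 0.23 (adjusted p = 0.00766). Mbl1, mannose-binding lectin, went the other way, from 297, 245 and 345 TPM to 63.9, 117 and 88.2 TPM (-1.74 ± 0.29, adjusted p = 0.0143). Cfi, Serpinf2, Fga, Plg and Kng2 rose by 1.55 to 1.79, and the protease Klkb1 fell. Members called higher numbered 1 without GKO non-tumour 3, 3 without GKO tumour 3, 4 without GKO non-tumour 2 and 6 without GKO tumour 1. Of Serpina genes 3 rose, Serpina7, Serpina1b and Serpina3m, and 1 fell, of 16, with close copies in this family. Hepatocyte markers themselves rose in 4 and fell in 0 of 10, with 2 and 0 after centring and a count of higher members of 1 without GKO non-tumour 3 and 2 without GKO non-tumour 1 or GKO non-tumour 2 or GKO tumour 1 or GKO tumour 2 or GKO tumour 3. Ahsg, fetuin A, was at 35369.5, 26445 and 17301 TPM against 5714, 2358 and 4699 TPM (2.67 ± 0.41, adjusted p = 0.0121), and Alb differed by 2.0 ± 0.27 (adjusted p = 0.00861).

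**Figure D4:**
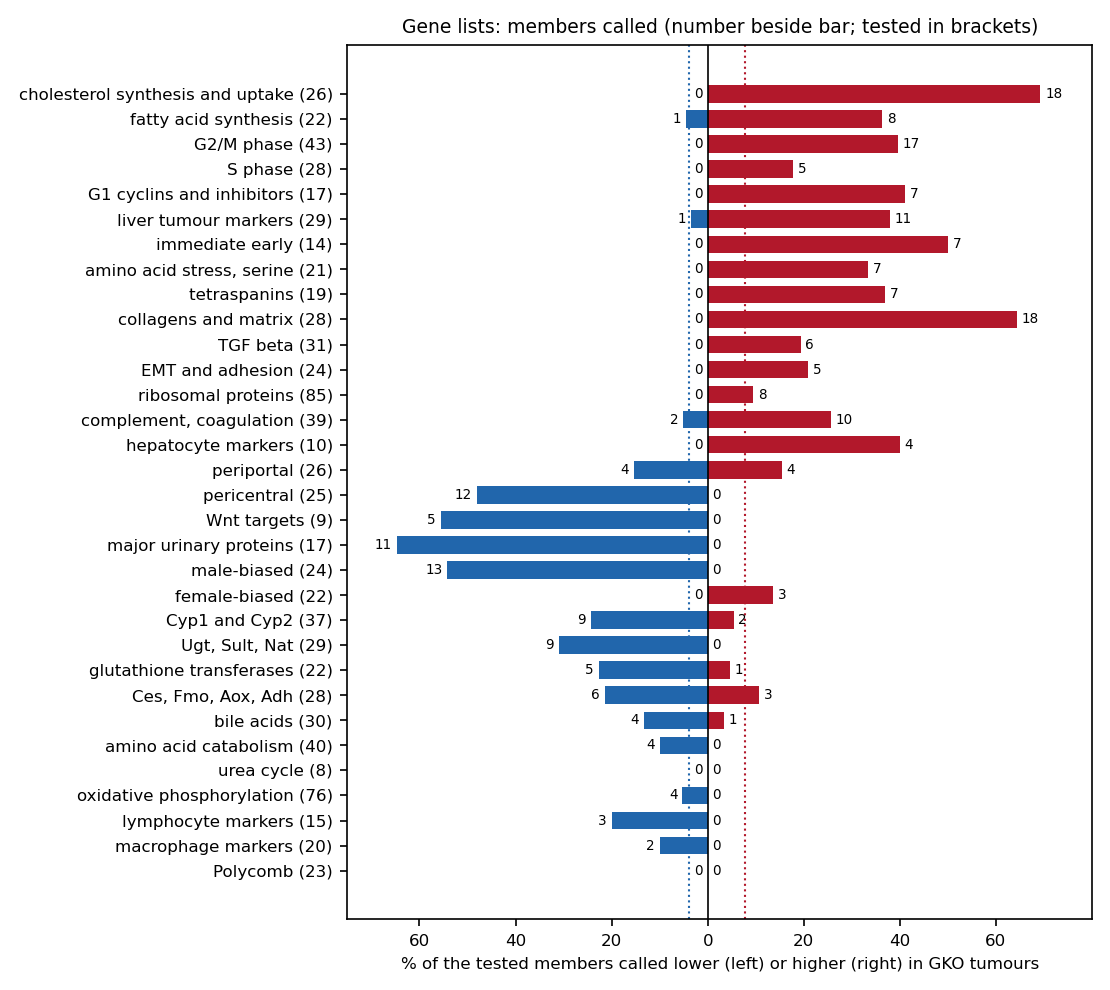
Share of the tested members of 32 gene lists called higher (red, right) or lower (blue, left) in GKO tumours against GKO non-tumours, in percent, with the number called beside each bar and the number tested in brackets. Dotted lines mark the shares over all genes, 7.75% higher and 3.97% lower; cholesterol and matrix lists reach furthest right, major urinary proteins and Wnt targets furthest left.

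Markers of non-parenchymal cells were called in both directions, and their part in the results was not tested. List medians were -0.27 for stellate cells and fibroblasts, -0.19 for endothelium, -0.05 for macrophages and -0.62 for lymphocytes. The stellate cell and fibroblast list had 6 higher and 4 lower members of 20, with summed levels of 172 to 351 TPM in tumours and 277 to 428 TPM in non-tumours. Acta2, smooth muscle actin, was at 13.9, 28.2 and 27.5 TPM in the tumours and 2.51, 0.86 and 0.348 TPM in the non-tumours (3.49 ± 0.42, adjusted p = 0.00655), and Pdgfrb rose by 1.31. Ecm1, Dcn, Vipr1 and Hand2 fell, and Lrat, which stores vitamin A as retinyl ester, was at 0.526, 1.58 and 0.797 TPM against 4.01, 2.27 and 2.25 TPM (adjusted p = 0.0643). The endothelial list had 4 higher and 2 lower of 19, summing to 279.8 to 372 TPM in tumours and 213 to 283 TPM in non-tumours. Esm1, endocan, was at 52, 20.8 and 43.5 TPM against 2.07, 0.669 and 0.355 TPM (4.28 ± 0.42, adjusted p = 0.00479), and Cd34, Pecam1 and Cdh5, markers of continuous capillaries and vessels, rose by 2.02, 1.68 and 1.52. The members that fell were Rspo3 and Wnt2, and only 7 of the 19 had a positive difference. Clec4g and Stab2, also of this list and not called, had negative differences in every fit without 1 sample, -0.63 to -2.43 and -0.20 to -0.72. The lower stellate count became 0 without GKO non-tumour 2 or GKO non-tumour 3 or GKO tumour 3, 1 without GKO tumour 1 and 2 without GKO non-tumour 1, and the endothelial count of higher members was 1 without GKO non-tumour 3 and 2 without GKO non-tumour 2 or GKO tumour 3. No marker of the cell type lists was at 0 in all 6 samples.

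Macrophage markers were lower in 2 and higher in 0 of 20, summing to 402 to 1646 TPM in tumours and 352 to 1519.8 TPM in non-tumours. Of the 20, 9 had a positive difference, and 3 were higher and 4 lower at an unadjusted p under 0.05 by limma. Adgre1, another marker of the list and not called, differed by -0.07 to 1.09 without 1 sample. The 2 called lower were Marco and Timd4, receptors of resident Kupffer cells, with Timd4 at 0.0498, 1.91 and 0.392 TPM against 11, 2.64 and 6.05 TPM (-2.06 ± 0.51, adjusted p = 0.0435). Macrophage markers called lower numbered 4 with median centring or voom, 0 without GKO non-tumour 3 or GKO tumour 1 or GKO tumour 3, 1 without GKO non-tumour 1 or GKO non-tumour 2 and 4 without GKO tumour 2. Clec4f, the marker most specific to Kupffer cells, was at 1.18, 38 and 8.48 TPM against 196, 55.6 and 106 TPM, not called (adjusted p = 0.0583), and highest among the tumours in GKO tumour 2. Lymphocyte markers were lower in 3 and higher in 0 of 15, summing to 31.5 to 179 TPM in tumours and 99.4 to 263 TPM in non-tumours. Trbc2 of the T cell receptor and Cd79b of the B cell receptor were among them. Limma called 0 of 9 cholangiocyte markers, with differences of 0.27 to 2.79 (4 higher and 0 lower at an unadjusted p under 0.05, 0 and 0 by voom), and summed levels of 49.8 to 979.7 TPM in tumours and 38.3 to 64.6 TPM in non-tumours. Of 8 neutrophil and red cell genes 1 fell, Alas2. The MHC list had 1 higher, H2-Q10, a class I molecule secreted by the liver, and 0 lower of 19, where 7.75% of all genes were higher. Of the 19, 18 had a positive difference, with a median of 0.83 (0.60 with median centring). By limma 13 were higher at an unadjusted p under 0.05, as were 3046 of all 14092 genes. Interferon-stimulated genes had 2 lower, Irf7 and Oas2, and 0 higher of 32, where 3.97% of all genes were lower.

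Limma called 0 of 23 Polycomb genes, with differences of -0.61 to 0.95 (6 higher and 2 lower at an unadjusted p under 0.05, 0 and 1 by voom). Cbx7, a subunit of Polycomb repressive complex 1 that the study examined as a target of miR-181, was at 2.67, 1.55 and 3.29 TPM in the tumours and 5.04, 4.09 and 3.67 TPM in the non-tumours, a difference of -0.61 ± 0.25 (adjusted p = 0.14). The groups did not overlap, as was so for 38.3% of all genes, and the tumours were the lower ones. Cbx7 was called lower in 3 of the other fits, with median centring, quantile normalisation and voom, and centring called 2 Polycomb genes lower. Limma called 0 of 13 evening clock genes, with differences of -0.10 to 2.86 (1 higher and 0 lower at an unadjusted p under 0.05, 0 and 0 by voom), and 0 of 5 morning clock genes, with differences of -0.81 to -0.07 (0 higher and 2 lower at an unadjusted p under 0.05, 0 and 0 by voom). It called 0 of 2 markers of pancreas, fat and muscle that were tested (1 higher and 0 lower at an unadjusted p under 0.05, 0 and 0 by voom). Of 6 genes that the study discusses beside miR-181, 1 was called, Timp3, which it brings up from other work and not as one of its own likely targets. The study itself reports Timp3 as raised in DEN tumours over non-tumour tissue, and as similar in KO and WT tumours. Timp3 rose, at 2.71, 1.71 and 4.35 TPM against 0.392, 0.282 and 0.168 TPM (1.56 ± 0.27, adjusted p = 0.0166). Aldh3a2 and Ndrg2 had negative differences that were not called, -1.0 ± 0.39 (adjusted p = 0.128) and -0.87 ± 0.33 (adjusted p = 0.121). Ndrg2 was called lower in 3 of the other fits of all samples and Aldh3a2 in 0. With the cluster absent from both groups, these values carry no comparison of miR-181 itself.

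Between genotypes, the tumour effect was seldom resolvable as different. In WT, 302 genes were higher in tumours, 2.16% of 14003 tested, and 290 lower, 2.07%. The difference of the 2 effects passed for 2 of 14106 genes, 0.0142%, by limma, both lower in GKO and 0 higher, where 1483 had an unadjusted p under 0.05 and voom called 0. The 2 genes were Csn3, kappa-casein, and Gm36325. Csn3 (chr5:87925579-87932665) was at 0.0782, 2.89 and 0.088 TPM in GKO tumours and 0.0308, 0.0307 and 0.0299 TPM in GKO non-tumours, where each value rests on 1 recovered read, and at 164, 134 and 92.3 TPM in WT tumours and 0.0586, 0.059 and 0.0288 TPM in WT non-tumours. The GKO effect minus the WT effect was -6.24 ± 0.59 (adjusted p = 0.00349). Every WT tumour stood above every GKO tumour. Gm36325, a predicted gene, was at 0, 0.424 and 0.465 TPM in GKO tumours, 0, 0.0442 and 0 TPM in GKO non-tumours, 8.18, 9.24 and 13.7 TPM in WT tumours and 0.0422, 0 and 0 TPM in WT non-tumours, and the effects differed by -3.13 ± 0.31 (adjusted p = 0.00349). For both genes the size of the difference depends on the pseudocount, since the GKO non-tumours held at most 1 recovered read each. The 6 genes next in order of adjusted p did not pass: Dnaic1, Zfp37, Klhl26, Cys1, Acot2 and Slc13a2, at 0.121 to 0.193. Leaving out WT tumour 3 raised the count from 2 to 91, GKO tumour 2 to 17 and WT non-tumour 1 to 4.

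Genes with large effects in both genotypes included Tff3 (WT 8.09 ± 0.76, adjusted p = 0.00297), Cyp2a4 (WT 6.84 ± 1.02, adjusted p = 0.0169) and Cyp2c54 (WT -5.72 ± 0.39, adjusted p = 0.00149). Limma called 0 cholesterol genes in WT, where 3 were higher at an unadjusted p under 0.05, and 0 G2 and M phase genes, where 5 were. No member's difference between genotypes passed. Fads2 differed by 0.87 ± 0.34 (adjusted p = 0.228) in WT and Fads1 by 0.28 ± 0.34 (adjusted p = 0.704), and the differences between genotypes were 3.41 ± 0.68 (adjusted p = 0.251) and 2.75 ± 0.58 (adjusted p = 0.272). The pericentral list had 15 lower members in WT and the male-biased list 3. Acot2, a mitochondrial thioesterase, rose in GKO tumours but was at 7.82, 6.54 and 2.73 TPM in WT tumours against 16.6, 58.4 and 33.6 TPM in WT non-tumours, and the effects differed by 3.61 ± 0.60 (adjusted p = 0.193). A gene or list past the threshold in GKO and not in WT was not shown to differ between them.

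**Figure D5:**
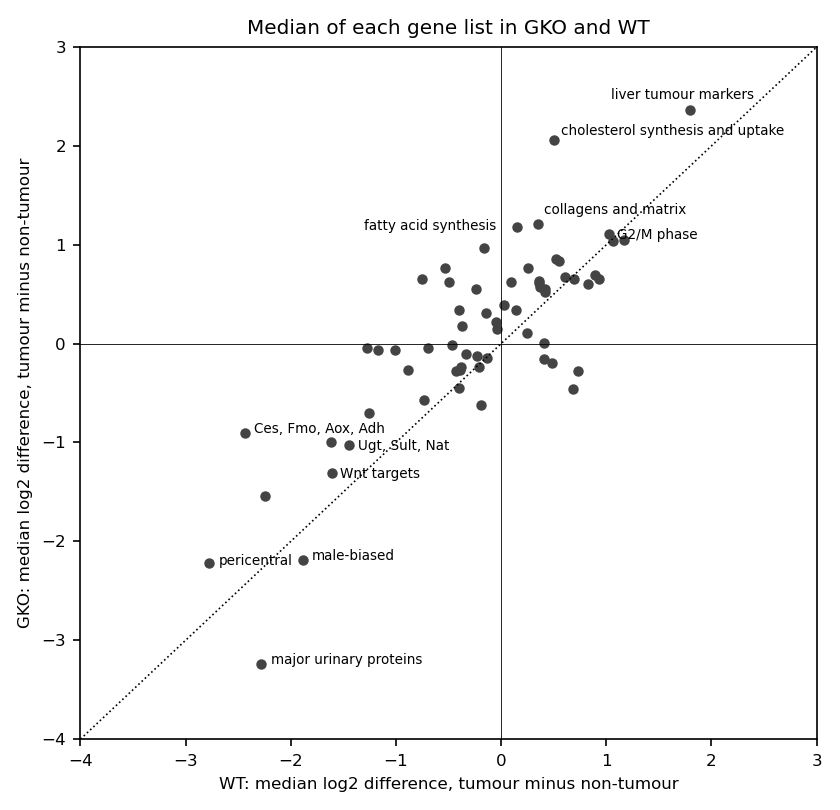
Median log2 difference, tumour minus non-tumour, of each of 64 gene lists with 5 or more tested members, in WT on the horizontal axis and in GKO on the vertical axis, with the line of equality dotted. Pericentral, Wnt target and major urinary protein lists lie low in both genotypes, and the cholesterol list lies at 0.50 in WT and 2.06 in GKO.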

How the data were processed

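Total RNA was extracted with Trizol from flash-frozen whole tissue. Per the labels' processing notes, STAR 2.7.3a served for alignment to mm10 and featureCounts 2.0.0 (Subread) for counting, and the authors deposited the result as TPM. The gene annotation, the TPM calculation and the use of strand are not given in the sources used here, so reads of overlapping, antisense or near-identical genes cannot be told apart. TPM share a fixed sum, and a change in abundant transcripts moves all other values.

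The table held 54838 genes. TPM times exonic length (GENCODE vM21, 54809 genes matched) gave whole reads, within 0.02, for 98.4% to 98.7% of values of up to 30 reads in the 6 samples. These reads gave the depth, which limits genes near the floor of 3 reads. All other counting error is inside the spread between replicates.

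Groups followed the labels. Limma 3.58.1 in R 4.3.3 (lmFit, eBayes with trend) was fitted to log2(TPM + 1) of the 3 GKO tumours and 3 GKO non-tumours, unpaired, over the 14092 genes that averaged 0.5 TPM or more. The difference between genotypes was an interaction contrast over 12 samples. P-values were 2-sided and adjusted by Benjamini-Hochberg over all genes tested. An exact permutation test of 3 against 3 cannot go below 0.10 and was not used. On simulated data of 14092 genes the GKO fit recovered 140 of 200 genes changed by 2 on the log2 scale, with 18 false calls, and 0 of 200 changed by 1. With so few genes changed, the adjusted threshold was stricter than in the real fit, so these recoveries do not carry over to it.

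The members and gene lists were chosen with earlier results of these data known. The genes named are the 15 largest rises and 15 largest falls among called genes without overlap (Gm and Rik symbols left out), the key genes of each list with up to 6 called members in each direction, the deleted genes, and the 8 genes with the smallest adjusted p of the difference between genotypes. Ier2 and Kng2 are among a few further called members named after their values were seen. A few genes that this rule names are not reported here. Alternatives were the pseudocount, the filter, centring, quantile normalisation, voom on recovered reads, all 18 samples, no trend, a replicate block and leaving out each sample. Promoters and miRNAs came from RefSeq tables on GRCm38.p6. Summaries and figures came from pandas 2.3.3, numpy 2.4.6 and matplotlib 3.10.9 under Python 3.11.15.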

Additional observations from a re-analysis of the deposited data

Results flagged for a closer look

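The tumour effect differed between GKO and WT for Csn3, by -6.24 on the log2 scale (adjusted p = 0.0035, limma), and for Gm36325, by -3.13 (adjusted p = 0.0035). These were the only genes of 14106 tested that passed a test of the difference itself. Csn3 was higher in WT tumours than in every other sample of the 4 groups, in 3 of 3 WT tumours, and Gm36325 likewise in 3 of 3. With a pseudocount of 0.1, a replicate block or voom, 0 genes passed. No explanation was tested.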

How the results depend on the processing

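Against 1652 genes called, 589 were called with no filter (381 higher, 208 lower), 1047 at a mean of at least 5 TPM (702 and 345, with fewer genes tested) and 2722 with all 18 samples in one fit (2031 higher). Lower calls numbered 990 with median centring, 884 with quantile normalisation and 890 with voom. Leaving out 1 sample gave 229 to 1567 calls, 147 to 1164 higher and 82 to 478 lower, with the lowest values without GKO non-tumour 3. Against 2 genes whose effect differed between genotypes, 0 passed with a pseudocount of 0.1, a replicate block or voom, 4 with no filter (1 higher), 1 at a mean of at least 5 TPM and 13 with all 18 samples (6 higher, 7 lower). Leaving out 1 sample gave 2 to 91, 0 to 24 higher and 2 to 67 lower, 91 being without WT tumour 3. The cause was not tested, beyond the fewer samples or genes that these fits hold. Of 201 called genes named in the text, 51 stayed called in every other fit that tested them and 71 in those that kept all samples, with 81 still called with no filter, and none changed direction. Of 17 not called, 11 gained a call in a fit that kept all samples. Of the others, Cys1 differed by -0.09 with median centring or voom, by -0.05 with quantile normalisation and by -0.08 to 0.4 without 1 sample, and Dnaic1 by -0.4 to 0.13 without 1 sample.

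Tumours and non-tumours share replicate numbers in the labels, but nothing says that a number marks a mouse. Deviations of same-numbered samples correlated at 0.119, 0.069 and 0.041, so the pairing rests on a number only, although each tumour correlated best with its own number. With the replicate block 973 genes were higher and 463 lower, 1436 in all.

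Genes that averaged less than 0.5 TPM were not tested, and depth limits values near 3 reads. In simulated data with 200 of 14092 genes changed, 3 samples a group left changes of 1 on the log2 scale uncalled. The real fit called 1652 genes, which makes its adjusted threshold less strict, so this recovery does not carry over to it.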

Other observations

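The genes encoded by the mitochondrial genome were looked at after their values were seen. Of 37 such genes, 33 were tested, of which 25 were lower in GKO tumours and 0 higher in limma's fit, with a median difference of -2.59 (WT -0.18). All 13 protein-coding members were lower, with a median of -2.77 (WT -0.09).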
